A study of Mus musculus with 24 samples.

Results

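Transcripts of 10 CC chemokine genes were described across bone marrow-derived macrophages: Ccl2, Ccl3, Ccl4, Ccl5, Ccl6, Ccl7, Ccl9, Ccl12, Ccl17 and Ccl22. The members were taken by symbol, and they are 10 of 52636 gene models in the count files. All 10 entered the tests, 1 of them (Ccl17) only through the reads of the Pam3 groups. The study sequenced polyA RNA from 24 libraries in 4 groups of 6. WT_NoPrime libraries came from macrophages of WT C57BL/6 mice in media alone, and WT_Pam3 libraries from WT macrophages after Pam3, a name in common use for a synthetic bacterial lipopeptide that is read by TLR2 with TLR1. Ninj1KO_NoPrime and Ninj1KO_Pam3 are the same conditions in macrophages of Ninj1 KO mice, which carry a knockout of Ninj1, the gene of a cell surface protein needed for plasma membrane rupture in dying cells. The WT libraries are labelled male and the sex of the Ninj1KO libraries is labelled NA. The labels used here state neither the dose and duration of Pam3, nor the age of the mice, the strain of the Ninj1 KO mice or the part of Ninj1 that was deleted. They also leave out whether the 6 libraries of a group are separate animals or separate cultures. The p-values therefore measure the variation among these libraries alone, and it could be technical.

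CC chemokines are small secreted proteins with a pair of adjacent cysteines near the amino end, and they draw leukocytes along a gradient through G protein-coupled CC receptors. Macrophages that sense a bacterial product through a Toll-like receptor signal by MYD88 to NF-kB and induce many of these genes, and type I interferon signalling adds to the induction of some, Ccl5 and Ccl12 among them. Ccl2, Ccl7 and Ccl12 are the monocyte chemoattractant proteins, which act on CCR2. Ccl3 and Ccl4 are the macrophage inflammatory proteins and Ccl5 is also known as RANTES; Ccl3 and Ccl5 act on CCR1. Ccl6 and Ccl9 are rodent chemokines of the CCR1-binding kind that myeloid cells make at rest, and Ccl17 and Ccl22 are ligands of CCR4, best known from dendritic cells and from macrophages stimulated with IL-4.

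On GRCm38, with the annotation of GENCODE mouse release M21, 8 members lie on chromosome 11 in 2 blocks and 2 lie on chromosome 8. The first block holds Ccl2 (chr11:82035571-82037453), Ccl7 (chr11:82045712-82047525) and Ccl12 (chr11:82101845-82103400), all on the plus strand, and ends with Ccl8. The second holds Ccl5 (chr11:83525778-83530518), Ccl9 (chr11:83572919-83578636), Ccl6 (chr11:83587882-83593087) and Ccl3 (chr11:83647844-83649355) on the minus strand, and Ccl4 (chr11:83662584-83664683) on the plus strand. On chromosome 8, Ccl22 (chr8:94745590-94751699) and Ccl17 (chr8:94810453-94812036) lie on the plus strand with Cx3cl1 between them. No member shares an exon base with another gene model. Ccl6 lies within the opposite-strand gene E230016K23Rik, which holds 316 reads over the 24 libraries against 449520 for Ccl6. Of the 50-base words in the transcripts of 9 members, 0% occur in a transcript of another gene, and for Ccl9 the share is 1.97%.

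Ccl9, Ccl6 and Ccl3 follow each other on the same strand and, as given further on, changed by very different amounts after Pam3, so their upstream sequences are printed side by side. RefSeq windows on GRCm38.p6 were found for 6 of the 10 members: Ccl3, Ccl6, Ccl9, Ccl12, Ccl17 and Ccl22. The start used is that of RefSeq. For Ccl3 it is not the GENCODE start given above, and the Ccl22 window (chr8:94745434-94745683) overlaps the GENCODE gene. The 250 bases before the start of Ccl3 (chr11:83649379-83649628, minus strand), Ccl9 (chr11:83578637-83578886, minus strand) and Ccl6 (chr11:83593088-83593337, minus strand) read 5′ to 3′ as follows, with motif matches in capitals.
Ccl3: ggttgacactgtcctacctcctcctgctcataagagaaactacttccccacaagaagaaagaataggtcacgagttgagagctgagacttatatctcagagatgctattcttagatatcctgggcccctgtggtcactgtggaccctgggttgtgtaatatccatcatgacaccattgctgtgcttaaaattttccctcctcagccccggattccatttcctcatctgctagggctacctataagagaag
Ccl9: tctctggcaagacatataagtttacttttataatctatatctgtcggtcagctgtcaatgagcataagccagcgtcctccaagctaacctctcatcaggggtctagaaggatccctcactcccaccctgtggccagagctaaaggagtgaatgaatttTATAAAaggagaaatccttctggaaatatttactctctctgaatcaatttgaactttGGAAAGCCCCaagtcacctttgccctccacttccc
Ccl6: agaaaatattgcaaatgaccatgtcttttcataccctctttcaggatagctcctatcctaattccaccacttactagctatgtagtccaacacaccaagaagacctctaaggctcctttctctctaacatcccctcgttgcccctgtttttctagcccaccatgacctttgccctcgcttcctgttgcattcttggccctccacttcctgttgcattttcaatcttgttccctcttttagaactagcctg
Searched motifs were the NF-kB consensus, the interferon-stimulated response element core (GAAA, any 2 bases, GAAA) and the AP-1 site TGACTCA on both strands, and TATAAA on the gene strand. The Ccl9 window held an NF-kB consensus match on its opposite strand from base -35 to base -26 before the start, GGAAAGCCCC as read here. It also held TATAAA from -92 to -87, and the 2 matches do not overlap. The Ccl3 and Ccl6 windows held no match to these letters, nor did those of Ccl17 and Ccl22, while the Ccl12 window held TATAAA from -31 to -26. Among all 32851 windows of the same length, 7.25% held the NF-kB consensus, 2.98% the interferon element core, 4.46% the AP-1 site and 7.59% TATAAA. A match or its absence describes these letters in this window only.

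Libraries held between 31302011 and 40663152 counted reads. Levels are CPM, read counts scaled to a TMM-adjusted library size, a scale that compares groups and not genes. Ninj1 was lower but not absent in the Ninj1KO libraries, at 151 to 179 CPM in NoPrime and 409 to 479 CPM in Pam3, than in the WT libraries, at 289 to 325 CPM and 646 to 1145 CPM. Summed macrophage markers stood at 26158 to 27868 CPM in WT_NoPrime and 33442 to 38008 CPM in WT_Pam3, with 26756 to 27405 and 31539 to 33158 CPM in the Ninj1KO groups. The lists for dendritic cells, granulocytes, lymphocytes and NK cells, mast cells and basophils, and stromal and endothelial cells each summed to at most 669 CPM in every library (lymphocytes and NK cells 10.9 to 45.6 CPM, mast cells and basophils 0.392 to 0.936 CPM), and none of their markers was at 0 in every library. In bulk samples, fewer cells of a type and less RNA per cell cannot be told apart.

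A pair of libraries stood apart. WT_Pam3 replicate 5 had the highest CPM of its group for all 10 members, with 12.2% of its reads in the 10 most abundant genes against 9.49% to 9.60% in the other 5 libraries, 0.336% mitochondrial reads against 0.441% to 0.478%, and 133 CPM of summed stromal markers against 178 to 199 CPM. Ninj1KO_NoPrime replicate 1 had the highest CPM of its group for 6 of 9 members (Ccl17 left out, with 0 reads in that group) and 4399 CPM summed over 22 interferon path genes against 2682 to 3055 CPM in the others. Values without these libraries are given beside the results that they moved.

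All 10 members rose with Pam3 in WT macrophages and all 10 in Ninj1KO macrophages, with the 6 Pam3 libraries above the 6 NoPrime libraries of the same genotype each time. Ccl17 passed the low-count filter only through its Pam3 reads, so its rise was a condition of its being tested. Rises were common in these comparisons: 40.6% of the 14435 genes tested were called higher in WT and 40.2% in Ninj1KO, and in 32.5% and 36.0% the Pam3 libraries lay wholly above. Large rises were less common. Leaving out Ccl17, 7 of 9 members rose at least 16-fold in each genotype, against 2.34% of all tested genes in WT and 2.17% in Ninj1KO, and 5 of 9 rose at least 64-fold, against 0.859% and 0.845%. The members were chosen with earlier results of these data known, so these shares are a description and not a test. With library size alone as the scale, 7 of 9 still rose at least 16-fold in each genotype, but 4 of 9 rose at least 64-fold in WT and 3 of 9 in Ninj1KO. The median log2 fold change of these 9 was that of Ccl4, 6.14 in WT and 6.10 in Ninj1KO, beside -0.05 and -0.07 over all tested genes. Together the members took 0.129% ± 0.00440 of all counted reads in WT_NoPrime and 1.54% ± 0.146 in WT_Pam3 (SD, n = 6), with 0.130% ± 0.00554 and 1.55% ± 0.0429 in the Ninj1KO groups.

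**Figure D1:**
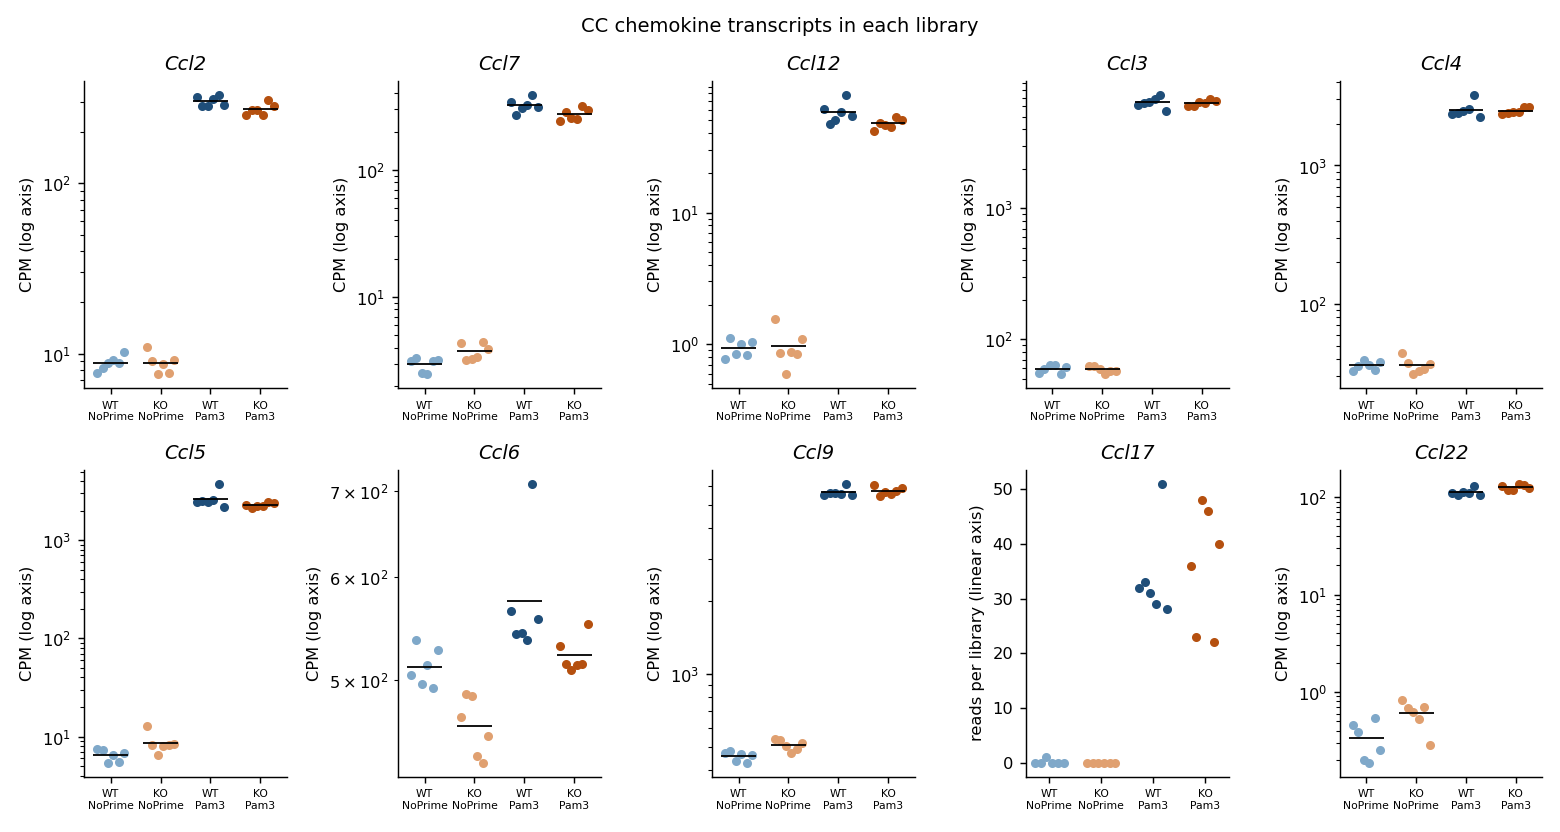
Level of each CC chemokine in the 24 libraries (points), grouped by genotype (WT, or KO for Ninj1KO) and treatment, in CPM on a log axis with a line at the group mean; Ccl17 is in reads per library on a linear axis with no line. In every panel the Pam3 libraries sit above the NoPrime libraries of the same genotype, narrowly for Ccl6, and WT_Pam3 replicate 5 is the highest point of its group.

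Among the monocyte chemoattractant genes, Ccl2, which draws CCR2-bearing monocytes out of bone marrow and into tissue, stood at 7.66 CPM (lowest), 8.81 (median) and 10.3 (highest) in WT_NoPrime and at 284, 303 and 330 CPM in WT_Pam3. The Ninj1KO values were 7.59, 8.88 and 10.9 CPM, then 252, 268 and 307 CPM. All Pam3 libraries were far above all NoPrime libraries, and the genotypes overlapped in both conditions. Its log2 fold change was 5.11 ± 0.08 (SE) in WT and 4.94 ± 0.08 in Ninj1KO (edgeR quasi-likelihood test, adjusted p = 1.39e-27 and 2.56e-27). Ccl7, a close relative that shares CCR2 and also binds other CC receptors, went from 2.49, 3.15 and 3.34 CPM to 272, 316 and 388 CPM in WT. In Ninj1KO it went from 3.22, 3.67 and 4.45 CPM to 243, 269 and 320 CPM. That is a log2 fold change of 6.76 ± 0.11 in WT and 6.18 ± 0.11 in Ninj1KO, the WT libraries starting lower and ending higher on average. Ccl12, a CCR2 ligand found in mice, was sparsely read at rest, with 24 to 60 reads per library. It rose from 0.777, 0.923 and 1.11 CPM to 47.2, 56.0 and 77.8 CPM in WT and from 0.598, 0.869 and 1.55 CPM to 41.7, 47.0 and 53.4 CPM in Ninj1KO, log2 fold changes of 5.94 ± 0.14 and 5.61 ± 0.14. The 3 members in this block thus rose between 30.7-fold and 109-fold in the ratio of mean CPM.

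Ccl3 and Ccl4, the macrophage inflammatory proteins, were read 2073 to 3056 times and 1234 to 1748 times per WT_NoPrime library. Ccl3 stood at 54.4, 60.6 and 63.9 CPM in WT_NoPrime and 5495, 6416 and 7318 CPM in WT_Pam3. In Ninj1KO it stood at 54.5, 58.7 and 62.8 CPM and then at 6075, 6407 and 6826 CPM. The log2 fold change was 6.75 ± 0.07 in WT and 6.76 ± 0.07 in Ninj1KO (adjusted p = 2.84e-31 and 2.89e-31), and the ranges of the Ninj1KO groups lay within those of the WT groups. Ccl4 went from 33.1, 36.0 and 39.5 CPM to 2222, 2430 and 3227 CPM in WT and from 31.3, 35.3 and 44.5 CPM to 2334, 2435 and 2644 CPM in Ninj1KO. Its log2 fold changes, 6.14 ± 0.10 and 6.10 ± 0.10, differed by -0.04 between genotypes (95% interval -0.27 to 0.19). Ccl5, which recruits T cells and monocytes and is a classical late target of NF-kB and interferon factors, had the largest fitted rise in WT of the members whose resting counts allow a fold. It moved from 5.42, 6.67 and 7.53 CPM to 2191, 2495 and 3766 CPM in WT, and from 6.47, 8.17 and 12.8 CPM to 2153, 2256 and 2474 CPM in Ninj1KO. The log2 fold changes were 8.67 ± 0.16 and 8.06 ± 0.16, or 407-fold and 266-fold in mean CPM. The top WT_Pam3 value and the top Ninj1KO_NoPrime value came from the libraries that stood apart, and the log2 fold changes of Ccl5 without both were 8.55 in WT and 8.20 in Ninj1KO.

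Ccl6 and Ccl9, the chemokines with high resting levels, had the smallest rises. Ccl9 had 430, 463 and 482 CPM in WT_NoPrime and 5480, 5594 and 6119 CPM in WT_Pam3. The Ninj1KO libraries had 473, 512 and 539 CPM and then 5457, 5693 and 6020 CPM. Its log2 fold change of 3.63 ± 0.04 in WT and 3.49 ± 0.04 in Ninj1KO is a rise of 12.3-fold and 11.2-fold on a base that was already high. Ccl6 had 493, 509 and 536 CPM in WT_NoPrime against 537, 550 and 709 CPM in WT_Pam3, and 432, 460 and 488 CPM against 508, 514 and 553 CPM in the Ninj1KO groups. The groups were separate within each genotype but only just, by less than 1 CPM in WT. Its log2 fold change was 0.17 ± 0.05 in WT (adjusted p = 0.00478) and 0.18 ± 0.05 in Ninj1KO (adjusted p = 0.00275), but with library size alone as the scale Ccl6 was called lower, at -0.35 and -0.30 (adjusted p = 8.67e-07 and 9.11e-06). On that scale the median of all tested genes was -0.58 in WT and -0.56 in Ninj1KO, so that Ccl6 lay above the median gene on both scales. In WT the call was lost without the filter on low counts (0.12, adjusted p = 0.0752) and the rise was 0.10 without WT_Pam3 replicate 5 (adjusted p = 0.00531).

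The CCR4 ligands were the lowest members at rest by length-scaled level, as given further on. Ccl22 was read 8 to 25 times per library in WT_NoPrime and 12 to 32 times in Ninj1KO_NoPrime. In CPM it went from 0.188, 0.324 and 0.546 to 106, 111 and 131 in WT, and from 0.282, 0.652 and 0.825 to 119, 128 and 138 in Ninj1KO. Log2 fold changes were 8.37 ± 0.13 and 7.71 ± 0.13, or 333-fold and 210-fold in mean CPM. Ccl17, the partner ligand, gave 1 read in all 6 WT_NoPrime libraries together and 0 reads in the 6 Ninj1KO_NoPrime libraries, where 3 counts over the group would be 0.0118 CPM. After Pam3 it gave 28, 31.5 and 51 reads per library in WT and 22, 38 and 48 in Ninj1KO. The 204 reads of WT_Pam3 against 1 read are a ratio of 304 per effective library size, with an exact 95% interval of 53.9 to 12051 that covers counting error only. In Ninj1KO, Ccl17 was at least 95.9-fold higher after Pam3, taken against 3 counts over the NoPrime group. Ccl17 therefore rose in both genotypes and remained the scarcest member. The 10 listed markers of dendritic cells summed to 21.1 to 25.7 CPM in WT_NoPrime and 204 to 246 CPM in WT_Pam3, with 23.7 to 25.8 and 220 to 256 CPM in the Ninj1KO groups. One by one they did not move together: of the 8 tested, 3 rose and 3 fell in WT and 3 rose and 2 fell in Ninj1KO, and with library size alone as the scale 5 fell in WT and 4 in Ninj1KO. Over all tested genes, 40.6% were called higher and 44.2% lower in WT, and 40.2% and 44.8% in Ninj1KO. The part of the dendritic cell markers in the rise of Ccl17 and Ccl22 was not tested.

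**Figure D2:**
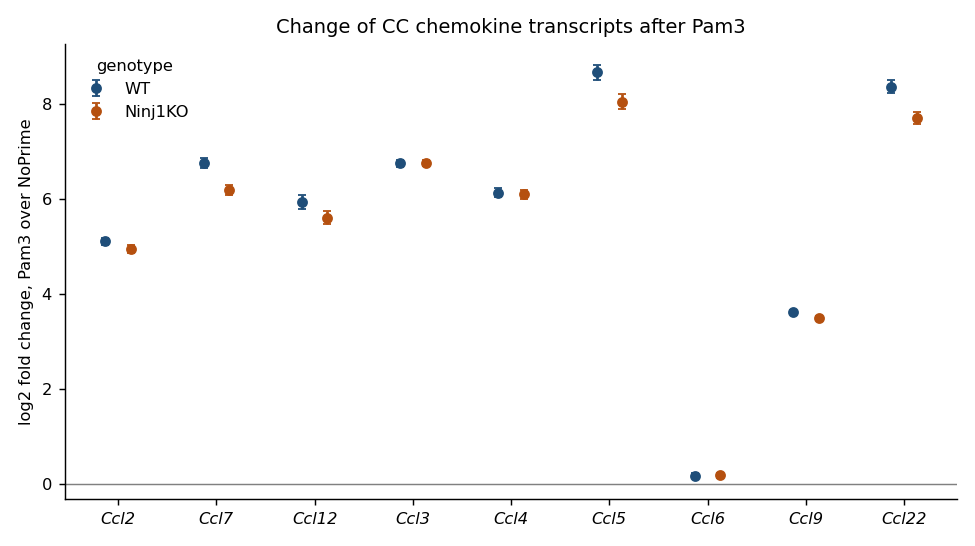
Log2 fold change of Pam3 over NoPrime for 9 members (all but Ccl17, whose resting counts allow no fitted fold), with WT and Ninj1KO side by side and bars of 1 SE from the fit over 24 libraries. Values run from 0.17 for Ccl6 to 8.67 for Ccl5 in WT, and the genotypes differ most for Ccl5, Ccl7 and Ccl22.

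At rest, few differences between genotypes were found among the members. Of the 10, Ccl9 was called higher in Ninj1KO_NoPrime than in WT_NoPrime and none was called lower, where 3.03% of all tested genes were called (1.92% higher, 1.12% lower). Ccl9 stood at 458 ± 19.9 CPM in WT_NoPrime and 510 ± 25.7 CPM in Ninj1KO_NoPrime (SD, n = 6), a log2 difference of 0.16 ± 0.04 with an adjusted p of 0.0300 by edgeR's quasi-likelihood test. The ranges of the groups overlapped. The call was lost without the low-count filter (adjusted p = 0.103) and when any of 6 single libraries was left out: WT_NoPrime replicate 3 (0.0944), 5 (0.0916) or 6 (0.0506), or Ninj1KO_NoPrime replicate 1 (0.0759), 2 (0.0741) or 6 (0.0663). Without WT_Pam3 replicate 5 the adjusted p was 0.00259, and the log2 difference without Ninj1KO_NoPrime replicate 1 was 0.14.

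Ccl6, the neighbour of Ccl9, lay the other way. All 6 Ninj1KO_NoPrime libraries (432 to 488 CPM) lay below all 6 WT_NoPrime libraries (493 to 536 CPM), a separation that 2.11% of tested genes showed in that direction. The log2 difference of -0.15 ± 0.05 had an adjusted p of 0.140 and so did not pass the test over all 24 libraries. It passed without WT_Pam3 replicate 5 (adjusted p = 0.00207) and in a fit of the 2 NoPrime groups alone (0.0104). Ccl22 had a log2 difference of 0.83 ± 0.24 (95% interval 0.35 to 1.31, adjusted p = 0.0517), from counts of 88 reads in WT_NoPrime and 153 in Ninj1KO_NoPrime. It passed the test in 7 of 31 alternative fits, whose adjusted p ran from 0.00260 (DESeq2) to 0.136, and its groups overlapped. Ccl5 differed by 0.40 ± 0.14 (adjusted p = 0.122) and Ccl7 by 0.34 ± 0.12 (0.126). Ccl5 passed without WT_Pam3 replicate 5 (0.0129) and without that library and Ninj1KO_NoPrime replicate 1 together (0.26, adjusted p = 0.0316). Without Ninj1KO_NoPrime replicate 1 alone, the difference of Ccl5 was also 0.26 and did not pass (adjusted p = 0.370), and those of Ccl22 (0.73, 0.133), Ccl7 (0.30, 0.272) and Ccl6 (-0.16, 0.194) did not pass either. Ccl7 passed in the fit of the NoPrime groups alone (0.0472). The intervals of Ccl2 (-0.16 to 0.16), Ccl3 (-0.13 to 0.10) and Ccl4 (-0.16 to 0.17) were narrow around 0, and that of Ccl12 (-0.39 to 0.47) was wide.

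Several gene lists moved with genotype at rest. Summed interferon path genes were at 2353 to 2578 CPM in WT_NoPrime and 2682 to 4399 CPM in Ninj1KO_NoPrime, summed granulocyte markers at 223 to 240 and 252 to 275 CPM, and summed stromal and endothelial markers at 50.2 to 59.6 and 63.2 to 106 CPM. Their part in the values of the chemokines was not tested.

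After Pam3, 0 of 10 members passed the test between genotypes by edgeR's quasi-likelihood test, and 0 by DESeq2 or limma-voom, where edgeR called 4.06% of all tested genes (1.31% higher, 2.75% lower). An unadjusted p under 0.05 was reached by 5 members, Ccl2, Ccl6, Ccl7, Ccl12 and Ccl22, and by 2354 of the 14435 tested genes. No member had groups that did not overlap, against 2.53% of tested genes. Means were lower in Ninj1KO_Pam3 for the 3 monocyte chemoattractant genes, and also for Ccl3, Ccl4, Ccl5, Ccl6 and Ccl17. Ccl6 had a log2 difference of -0.14 (95% interval -0.25 to -0.03, adjusted p = 0.155 by edgeR). Ccl2 was at 305 ± 20.4 CPM in WT_Pam3 and 272 ± 20.8 in Ninj1KO_Pam3, a log2 difference of -0.16 (95% interval -0.30 to -0.02, adjusted p = 0.205). For Ccl7 the levels were 324 ± 39.3 and 274 ± 30.2 CPM and the log2 difference -0.24 (-0.40 to -0.07, adjusted p = 0.108), and for Ccl12 they were 58.1 ± 10.9 and 47.3 ± 4.27 CPM and -0.29 (-0.50 to -0.09, adjusted p = 0.0983). The ranges of the groups overlapped for all 3 genes. Summed macrophage markers were also lower in Ninj1KO_Pam3 (31539 to 33158 CPM) than in WT_Pam3 (33442 to 38008 CPM). The highest WT_Pam3 sum was that of replicate 5, and the other WT_Pam3 libraries reached at most 34752 CPM. Of the 9 markers, 3 were lower and 1 higher in Ninj1KO_Pam3, beside 2.75% and 1.31% of all tested genes. Lymphocyte and NK markers summed to 10.9 to 13.3 CPM against 14.0 to 16.2 CPM, and the part of either list in these values was not tested.

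Ccl22 had the opposite sign, with 113 ± 9.41 CPM in WT_Pam3 and 127 ± 7.57 in Ninj1KO_Pam3 and a log2 difference of 0.17 (0.01 to 0.33, adjusted p = 0.272). Without WT_Pam3 replicate 5, the highest WT library, it was 0.22 and passed the test (adjusted p = 0.00457). Without both libraries that stood apart, Ccl7 (-0.18, adjusted p = 0.0478), Ccl12 (-0.19, 0.0275) and Ccl22 (0.22, 0.00184) passed. Ccl3, Ccl4 and Ccl9 had intervals of -0.12 to 0.11, -0.19 to 0.13 and -0.07 to 0.10, so that a genotype difference inside those bounds is not excluded. Ccl5 (-0.21, -0.44 to 0.02) carried the spread of WT_Pam3 replicate 5, without which its difference was -0.09. Ccl17 gave 204 and 215 reads in the Pam3 groups, with group ranges that overlapped.

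**Figure D3:**
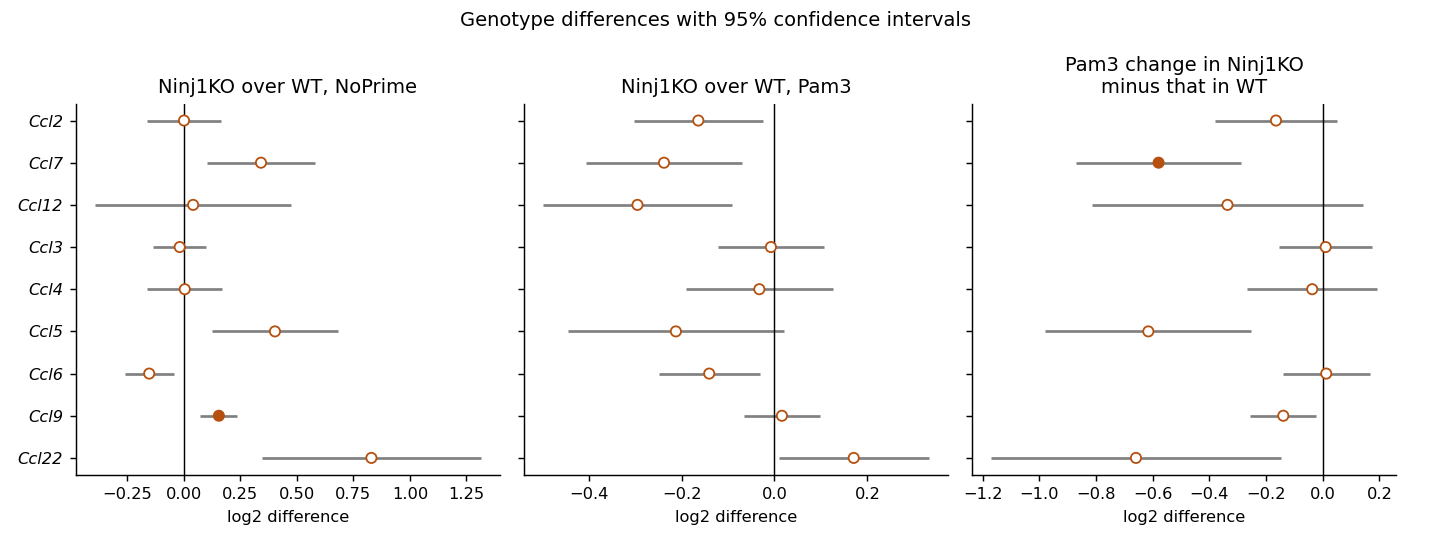
Log2 differences between Ninj1KO and WT at rest (left), after Pam3 (middle), and between the Pam3 changes of the genotypes (right) for 9 members, with lines for 95% confidence intervals and filled points where the adjusted p is under 0.05; each panel has its own scale. Filled points are Ccl9 at rest and Ccl7 in the right panel, and the intervals of Ccl3 and Ccl4 include 0 in all panels.

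The Pam3 change itself differed between genotypes for 1 of 10 members, where 0.762% of tested genes were called (0.589% lower in Ninj1KO). Ccl7 rose less in Ninj1KO, with a difference of -0.58 ± 0.14 on the log2 scale (95% interval -0.87 to -0.29, adjusted p = 0.0496 by edgeR's quasi-likelihood test). As given above, Ninj1KO libraries had the higher mean before Pam3 and the lower mean after it. The call rested on a narrow margin. It was lost with DESeq2's size factors in edgeR (adjusted p = 0.0529), with library size alone (0.0662), without the low-count filter (0.0589) and with limma-voom (0.108), and it held in 7 of 24 fits that left out 1 library (0.0243 to 0.117). DESeq2 gave 0.00577. Without Ninj1KO_NoPrime replicate 1 the difference was -0.52 (adjusted p = 0.0943), and without both libraries that stood apart it was -0.48 (0.0503).

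Ccl5 and Ccl22 had differences of similar size that did not pass. That of Ccl5 was -0.62 ± 0.18 (adjusted p = 0.0940), and it passed in DESeq2 (0.0249) and without WT_Pam3 replicate 5 (-0.49, 0.0255), while without Ninj1KO_NoPrime replicate 1 it was -0.46 (0.189). Without both libraries that stood apart it was -0.35 and passed in edgeR (adjusted p = 0.0215), as the only member called there. That of Ccl22 was -0.66 ± 0.25 (0.243), passing in DESeq2 alone (0.0465). For Ccl3 (0.01, 95% interval -0.15 to 0.17), Ccl4 (-0.04, -0.27 to 0.19) and Ccl6 (0.01, -0.14 to 0.17) the interval held differences of at most 0.27 on either side of no difference. Of the 9 members without Ccl17, Ccl22 and Ccl12, with the fewest resting reads, had the widest intervals.

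To compare the members with each other, the deposited length-scaled values were used (size-factor-adjusted RPKM). In WT_NoPrime the order was Ccl6 at 317 ± 12.6, Ccl9 at 136 ± 6.54, Ccl3 at 69.4 ± 4.83, Ccl4 at 48.6 ± 3.48, Ccl5 at 10.9 ± 1.5, Ccl2 at 9.68 ± 1.03, Ccl7 at 3.31 ± 0.410, Ccl12 at 1.55 ± 0.235 and Ccl22 at 0.136 ± 0.0587 RPKM (SD, n = 6), with Ccl17 listed at 0 in 5 of 6 libraries. The order in Ninj1KO_NoPrime was the same. Only Ccl5 and Ccl2 had library ranges that overlapped among neighbours in these orders, in both genotypes.

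Pam3 rearranged the order. In WT_Pam3, Ccl3 led with 7627 ± 712 RPKM, before Ccl5 with 4539 ± 938, Ccl4 with 3486 ± 480 and Ccl9 with 1707 ± 66.8. Ccl7 (367 ± 43.6), Ccl6 (363 ± 40.4) and Ccl2 (340 ± 22.2) overlapped each other, and Ccl12 (98.2 ± 18.2), Ccl22 (46.3 ± 3.74) and Ccl17 (2.08 ± 0.589) were separate and lower. Ccl5 and Ccl4 overlapped in WT_Pam3 but not in Ninj1KO_Pam3, at 3915 ± 205 and 3405 ± 185 RPKM. Ninj1KO_Pam3 had the same order except for Ccl6 (329 ± 10.1) and Ccl7 (311 ± 35.2), which changed places and overlapped. When CPM were divided by the exon length of GENCODE instead, Ccl4 came before Ccl5 in both Pam3 groups, so the order of these 2 genes depends on the length used.

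**Figure D4:**
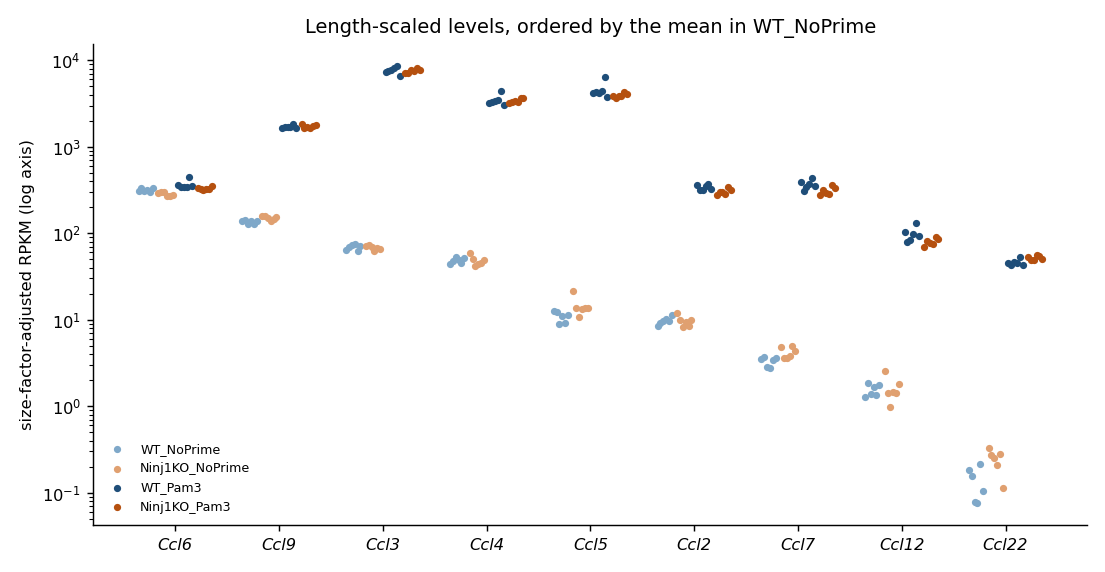
Size-factor-adjusted RPKM (log axis) of 9 members in every library (points), coloured by group and ordered by the mean in WT_NoPrime. The NoPrime points fall steadily from Ccl6 to Ccl22, whereas after Pam3 Ccl3, Ccl4 and Ccl5 lie above all others and Ccl6 stays near its resting level.

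As shares of the summed RPKM of the 10 members, Ccl6 made up 53.1% ± 0.620 in WT_NoPrime and 1.96% ± 0.131 in WT_Pam3. Ccl9 went from 22.8% ± 0.606 to 9.26% ± 0.714. Ccl3 went from 11.6% ± 0.631 to 41.2% ± 1.75, Ccl4 from 8.16% ± 0.529 to 18.7% ± 0.412 and Ccl5 from 1.83% ± 0.217 to 24.3% ± 1.93. The sum itself rose from 596 ± 23.9 to 18576 ± 2221 RPKM in WT and from 582 ± 30.7 to 17700 ± 812 RPKM in Ninj1KO. The CC chemokine message of these cells was therefore mostly Ccl6 and Ccl9 at rest and mostly Ccl3, Ccl4 and Ccl5 after Pam3, in both genotypes: in Ninj1KO_Pam3, Ccl3 made up 42.8% ± 0.532, Ccl5 22.1% ± 0.321 and Ccl4 19.2% ± 0.329.

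Within groups, the members varied together to different degrees. Deviations of log2 CPM from the group mean were compared over the 24 libraries for the 36 pairs of 9 members (Ccl17 had too few reads). These correlations are descriptions, and all pairs share the same libraries, depths and scaling. The median Pearson r was 0.47, with 16 pairs above 0.5 and 4 below 0. The closest pair was Ccl2 and Ccl12 (r = 0.81), which lie in the same block, followed by Ccl5 and Ccl12 (0.79), which do not. Ccl2 and Ccl22 were the least alike (-0.15). Without WT_Pam3 replicate 5 the median was 0.28, with 10 pairs above 0.5 and 6 below 0, and Ccl2 and Ccl12 were still the closest (0.80). Without Ninj1KO_NoPrime replicate 1 as well, the median was 0.17, with 8 pairs above 0.5 and 8 below 0. The closest pair over those 22 libraries was Ccl3 and Ccl4 (0.75), and the least alike were Ccl4 and Ccl22 (-0.49).

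Searched against 11170 protein-coding genes with at least 20 counts per library on average, Ccl5 was most like Ifitm3 (r = 0.93) and Mitd1 (0.92), and Ccl4 most like Trim12a (0.91) and Ifi35 (0.90), over 24 libraries. Ifitm3 and Ifi35 are interferon-induced genes. Ccl6 was most like Txndc17 (0.96) and Snf8 (0.95), Ccl9 like Thoc7 (0.84) and Ctss (0.84), and Ccl3 like Arl8a (0.87) and Slamf8 (0.86). Ccl12 was most like Ccdc25 (0.89) and Isg20 (0.85), Ccl2 like Ccl12 (0.81) and Ccdc25 (0.76), Ccl7 like Uros (0.73) and Ly6c2 (0.72), and Ccl22 like Sp6 (0.72) and Chid1 (0.69). Without WT_Pam3 replicate 5, Txndc17 still ranked first for Ccl6 (0.87). Mitd1 for Ccl5 (0.92), Arl8a for Ccl3 (0.84), Thoc7 for Ccl9 (0.83), Ccdc25 for Ccl12 (0.88) and Chid1 for Ccl22 (0.77) stayed among the 2 highest, while for Ccl2, Ccl4 and Ccl7 other genes took both places. Without both libraries that stood apart, the first places went to Mitd1 for Ccl5 (0.84), Alyref for Ccl4 (0.86), Sem1 for Ccl6 (0.88), Emc7 for Ccl9 (0.88), Arl8a for Ccl3 (0.86), Snx2 for Ccl12 (0.81), Asph for Ccl2 (0.77), Gpr107 for Ccl7 (0.79) and Cd55 for Ccl22 (0.80).

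**Figure D5:**
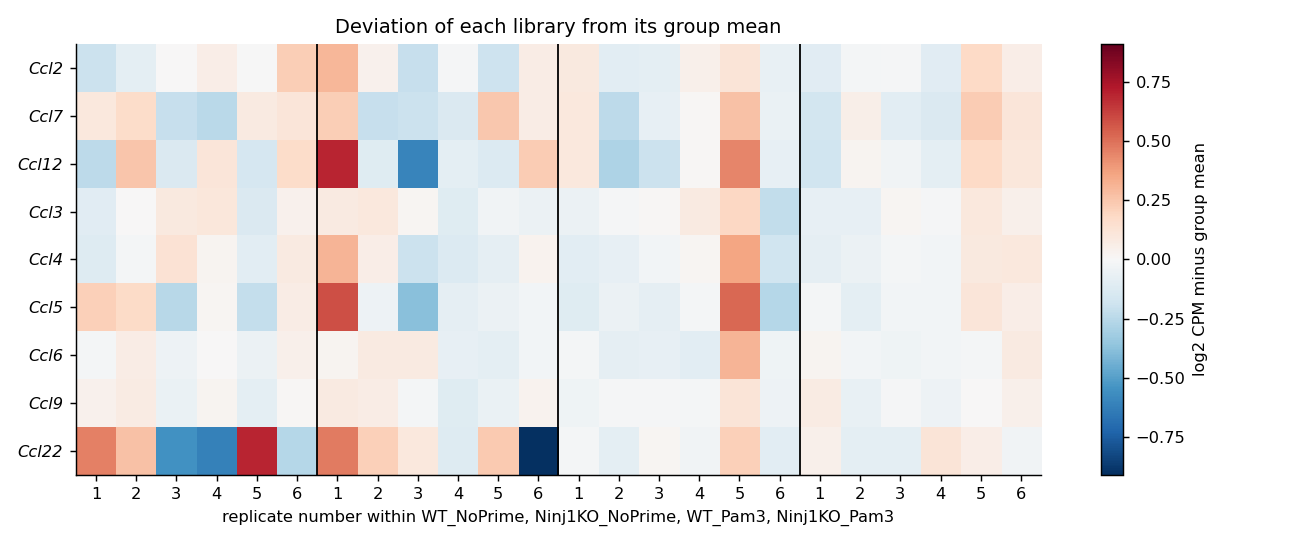
Deviation of log2 CPM from the group mean for 9 members (rows) in 24 libraries (columns, replicates 1 to 6 within each group, groups divided by lines), red above and blue below the mean. The column of WT_Pam3 replicate 5 is red throughout, that of Ninj1KO_NoPrime replicate 1 is red most deeply for Ccl12, Ccl5 and Ccl22, and Ccl22 at rest varies most.

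Neighbouring members differed in the size of their change. In the 81.2 kb from Ccl2 to Ccl8, all 4 tested genes rose in WT, from 1.25 for Ccl8 to 6.76 for Ccl7 on the log2 scale. In the 139 kb from Ccl5 to Ccl4, log2 fold changes in WT ran 8.67, 3.63, 0.17, 6.75 and 6.14 for Ccl5, Ccl9, Ccl6, Ccl3 and Ccl4 in chromosome order. Ccl6 thus lies 9.25 kb from Ccl9 and 54.8 kb from Ccl3, between genes whose mean CPM rose 12.3-fold and 108-fold in WT. On chromosome 8, Cx3cl1, the gene of a membrane-bound CX3C chemokine between Ccl22 and Ccl17, rose by 5.11 in WT and 4.58 in Ninj1KO. Between the blocks of chromosome 11 lie 1409 kb with 24 tested genes, of which 19 rose and 4 fell in WT with a median of 1.05. Large rises were not limited to the blocks: Tmem132e (8.14) and Heatr9 (6.89), the tested gene next to Ccl5, rose more than Ccl7 in WT. Over all tested genes, 40.6% were called higher and 44.2% lower in WT.

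Other CC chemokine genes were few. Of 14 listed, 7 (Ccl11, Ccl19, Ccl21a, Ccl21b, Ccl21c, Ccl26 and Ccl27b) had 0 reads in every library and 3 were tested. After Pam3, Ccl24, an eosinophil attractant, rose by 4.47 ± 0.18 in WT and 4.26 ± 0.18 in Ninj1KO, Ccl8 rose by 1.25 ± 0.08 and 0.95 ± 0.08, and Ccl25 fell (-0.46 and -0.52). Ccl8, the monocyte chemoattractant gene at the end of the first block, was lower in Ninj1KO after Pam3 (-0.52 ± 0.08, adjusted p = 0.000254), whereas its 3 neighbours were not called; whether it differed from them was not tested.

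Genes of CC receptors and scavengers, not all of them receptors of these ligands, moved in both directions after Pam3. Of 8 tested CC receptor and scavenger genes, 4 rose and 3 fell in WT, and 5 rose and 3 fell in Ninj1KO, of which Ccr1 fell instead with library size alone as the scale. Over all tested genes, the shares called higher were the 40.6% and 40.2% given above, and 44.2% were called lower in WT and 44.8% in Ninj1KO. Ccr2, the receptor of the monocyte chemoattractants, fell (log2 fold change -4.58 in WT and -4.69 in Ninj1KO). Ccrl2, which binds chemerin, rose by 5.76 and 5.55, and Ccr7, which guides cells to lymph nodes and is also on the dendritic cell list, rose by 3.59 and 3.18. Between genotypes, Ccr2 was higher in Ninj1KO at rest (0.48 ± 0.07, adjusted p = 0.000118) and after Pam3 (0.37 ± 0.09, 0.0117), Ccr1 (0.27 ± 0.08, 0.0439) was higher after Pam3, and Ccrl2 was lower (-0.23 ± 0.04, 0.00124).

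The CXC chemokines are the sister family. Their list and those that follow were, like the members, chosen with earlier results of these data known. Of 11 CXC genes tested, 9 rose and 1 fell in WT, and 9 rose and 2 fell in Ninj1KO. Over all tested genes, 40.6% were called higher and 44.2% lower in WT, and 40.2% and 44.8% in Ninj1KO. The CXC rises were led by the neutrophil attractants Cxcl2 (11.97 and 11.12), Cxcl1 (11.43 and 10.90) and Cxcl3 (11.26 and 10.72). At rest 4 of 11, beside 1.92% of all tested genes, were higher in Ninj1KO (3 without Ninj1KO_NoPrime replicate 1): Cxcl16 (0.24), Cxcl10 (0.53), Cxcl12 (0.62), which is also on the stromal list, and Cxcl2 (0.72). Of the path from TLR2 to NF-kB, 25 of 29 genes rose and 3 fell in WT, and 26 rose and 2 fell in Ninj1KO. The shares of all tested genes are those just given. Among the path genes that rose were the inhibitors Nfkbia (5.0 and 4.83), Nfkbie (4.24 and 3.93) and Irak3 (4.12 and 4.13). With library size alone as the scale, 22 rose in each genotype, and 7 fell in WT and 4 in Ninj1KO. Between genotypes at rest, 3 of the 29 were higher in Ninj1KO and 1 lower, beside 1.92% and 1.12% of all tested genes. By edgeR, Nfkbie (0.26, adjusted p = 0.000802), the receptor Tlr2 (0.21, 0.00321) and its adaptor Myd88 (0.19, 0.0114) were higher. Cd36 (-0.34, 0.00143), a scavenger receptor that can assist TLR2, was lower. After Pam3, 0 of 29 were called by edgeR, beside 4.06% of all tested genes. Without WT_Pam3 replicate 5, 7 were higher and 2 lower at rest, and 1 was higher and 2 lower after Pam3. The Pam3 change of Nfkbie (-0.31, adjusted p = 0.0115) and Tlr2 (-0.24, 0.0396) was smaller in Ninj1KO, beside 0.589% of all tested genes. Only 1 of the 29 was called so with DESeq2's size factors in edgeR, with library size alone, or without Ninj1KO_NoPrime replicate 1. Without WT_Pam3 replicate 5 there were 3.

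Interferon path genes were higher in Ninj1KO at rest. Of 22, 12 were higher and 0 lower in Ninj1KO_NoPrime, beside 1.92% and 1.12% of all tested genes, for example Irf7 (0.82 ± 0.13), a factor of interferon induction, and Ifit3 (0.97 ± 0.18). After Pam3, 2 were lower in Ninj1KO, Irf1 (-0.33) and Irf5 (-0.16), beside 2.75% of all tested genes. In the difference of the Pam3 changes 6 were lower, beside 0.589%, with Irf1 (-0.53), Ifit3 (-1.18), Irf7 (-0.83) and Ifit1 (-0.96) leading. With library size alone as the scale, 1 was higher and 1 lower after Pam3. In the difference of the changes, 5 were lower on that scale and 5 with DESeq2's size factors in edgeR. Ninj1KO_NoPrime replicate 1 carried the highest interferon sum, as given above. Without it 11 were higher at rest, 1 was lower after Pam3 and 12 were lower in the difference of the changes. Without both libraries that stood apart these numbers were 13, 6 and 14. In the IL-4 and STAT6 path, which is known to raise Ccl17 and Ccl22, 3 of 8 tested genes rose and 4 fell in WT after Pam3. In Ninj1KO 3 rose and 5 fell. Over all tested genes, 40.6% were called higher and 44.2% lower in WT, and 40.2% and 44.8% in Ninj1KO. With library size alone as the scale, 2 genes of this path rose and 6 fell in each genotype, Il4ra turning from a rise to a fall. Stat6 (-1.02 and -0.96), Irf4 (-2.63 and -2.59) and Mrc1 (-1.96 and -2.13) fell after Pam3 and the inhibitor Socs1 rose (4.72 and 4.61). Between genotypes, Chil3, a chitinase-like gene that IL-4 induces in macrophages, was higher in Ninj1KO at rest (0.51) and after Pam3 (0.41). The receptor gene Il4ra (0.16) was higher and Arg1 (-0.89), the arginase gene, was lower at rest, and Mrc1 (-0.31) was lower after Pam3. At rest without Ninj1KO_NoPrime replicate 1, 1 of the 8 genes was higher and 0 lower, and without WT_Pam3 replicate 5, 2 were higher and 2 lower at rest and 3 were higher and 1 lower after Pam3. Of 8 genes for proteins that act on the decay of chemokine mRNA, 6 rose and 2 fell in both genotypes, beside the same shares of all tested genes. With library size alone as the scale, 5 rose and 2 fell in each genotype. Zc3h12a (3.99 and 4.01) and Zfp36 (2.53 and 2.53), which shorten the life of such messages, rose, and Zfp36l1 (-3.49 and -3.58) and Zfp36l2 (-2.53 and -2.57) fell. By edgeR, 0 of these 8 were called between genotypes at rest or after Pam3, beside 3.03% and 4.06% of all tested genes.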

How the data were processed

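PolyA RNA of 24 macrophage libraries was sequenced on an Illumina HiSeq4000 as single-end reads after a TruSeq v2 preparation, which does not mark strand, per the labels' protocols. Reads were aligned with GSNAP to GRCm38, per the submitters' processing notes; the version and settings are not stated there. The deposited counts are reads aligned uniquely to each gene model, and the deposited RPKM values are adjusted by a size factor, both per the file headers. Of 52636 gene models, 52489 matched GENCODE M21 and the other 147 held 0.00387% of reads.

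Counts were tested with edgeR 4.0.16 in R 4.3.3 (limma 3.58.1): filterByExpr (14435 genes kept), TMM, and a quasi-likelihood fit of 4 groups over all 24 libraries (biological coefficient of variation 8.21%). Adjusted p-values are Benjamini-Hochberg over all genes tested, with a threshold of 0.05. Each standard error was derived from the F statistic, and intervals are 95%. The script was tested on simulated data. The exact interval of the Ccl17 read ratio and the floor of 3 counts cover counting error only; intervals of fold changes cover the variation among libraries. RPKM values were used as deposited to order the members.

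The members and gene lists were chosen with earlier results of these data known. Named genes are the members, Ninj1, up to 4 genes per list and comparison with the smallest adjusted p, the 2 genes most alike each member, and genes lying between members. The lists were other CC chemokines, CC receptors, CXC chemokines, the TLR2 to NF-kB, interferon, and IL-4 and STAT6 paths, mRNA decay, and markers of 6 cell types. Alternatives were DESeq2 1.42.0 and its size factors, library size alone, no low-count filter, limma-voom, only the groups compared, a 2-fold minimum, exon-length scaling, leaving out each library and, chosen after seeing the data, leaving out WT_Pam3 replicate 5 alone or with Ninj1KO_NoPrime replicate 1. Values of 1 listed gene are not reported here.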

Additional observations from a re-analysis of the deposited data

Results flagged for a closer look

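In 8 of 39 groups of 6 libraries checked, 1 library lay far from the other 5, its gap to the nearest divided by the range of the group being above Dixon's 95% critical value. Chance gives about 1 in 20 groups, but the genes share the same libraries, so the 39 checks are not independent. In WT_Pam3 the library that lay far from the others was replicate 5 each time, as the highest. The ratio was 0.681 for Ccl4 (3227 CPM against 2222 to 2543), 0.750 for Ccl5 (3766 against 2191 to 2584) and 0.832 for Ccl6 (709 against 537 to 566). It was 0.785 for Ccl9 (6119 against 5480 to 5617), 0.751 for Ccl17 (1.85 against 0.919 to 1.15) and 0.665 for Ccl22 (131 against 106 to 114). These values come from 1 library, which also differed in mitochondrial reads and in the share of its most abundant genes, as given above; the part of those in the chemokine values was not tested.

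In Ninj1KO_NoPrime, Ccl5 in replicate 1 was at 12.8 CPM against 6.47 to 8.31 CPM in the others, a ratio of 0.708. For Ccl17 in WT_NoPrime the ratio of 1 stands for a single read in replicate 3, 0.0248 CPM, where the others had 0.

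The Pam3 response of Ccl7 differed between genotypes by the test of the difference itself, at -0.58 on the log2 scale for Ninj1KO minus WT (adjusted p = 0.0496, edgeR). As given above, the margin was narrow, and the call held in 7 of 24 fits that left out 1 library.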

How the results depend on the processing

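All 10 members kept their rise with Pam3 in every fit that left out 1 library (10 to 10 in both genotypes). For Ccl17 the rise was a condition of its being tested, as given above. Ccl6 was lower instead with library size alone, at -0.35 in WT and -0.30 in Ninj1KO, so that 1 member fell there in each genotype. Of the members, 1 was higher at rest in Ninj1KO; this was 2 with library size alone, DESeq2, only the groups compared, or without the 2 libraries that stood apart, and 0 with a 2-fold minimum, with 0 to 3 on leaving out 1 library. The members lower at rest went from 0 to 1 with only the groups compared or without those 2 libraries (0 to 1 on leaving out 1). After Pam3, members higher went from 0 to 1 and lower from 0 to 2 without those 2 libraries (0 to 1 and 0 to 0 on leaving out 1). For the difference of the Pam3 changes, the 1 member lower became 0 with DESeq2's size factors in edgeR, library size alone, no filter, limma-voom or a 2-fold minimum, and 3 with DESeq2 (0 to 2 on leaving out 1, and 0 to 0 higher). Of 836 member values that passed the test in neither setting, 69 changed sign. The causes were not tested.

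Over all genes, those higher at rest in Ninj1KO numbered 277, and 581 with only the groups compared, 541 without the 2 libraries, 11 with a 2-fold minimum and 154 to 658 on leaving out 1 library. Those lower numbered 161, and 271 with DESeq2, then 531, 515 and 5 under the same settings, and 84 to 616. After Pam3, higher genes numbered 189, and 412 with library size alone, 63 with only the groups compared, 389 without the 2 libraries, 11 with a 2-fold minimum and 106 to 352. Lower genes numbered 397, and 220 with library size alone, 183 without the filter, 599 with DESeq2, 114, 936, 4 and 267 to 826. Pam3 against NoPrime in WT gave 5859 higher and 6376 lower genes, 3584 and 9055 with library size alone, 2621 and 3628 with a 2-fold minimum, and 5755 to 5981 and 6352 to 6651 on leaving out 1. In Ninj1KO these were 5803 and 6470, then 3685 and 8935, 2583 and 3645, and 5744 to 6040 and 6395 to 6733. For the difference of the changes, 25 genes were higher, and 85 with DESeq2, 91 without the 2 libraries, 1 with a 2-fold minimum and 8 to 102. There 85 were lower, and 54 with library size alone, 41 without the filter, 302 with DESeq2, 411 without the 2 libraries, 6 with a 2-fold minimum and 20 to 442.

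With CPM per exon kilobase, Ccl5 ranked 6 and Ccl2 ranked 5 in WT_NoPrime, Ccl5 ranked 3 and Ccl4 ranked 2 in both Pam3 groups, and Ccl6 ranked 6 and Ccl7 ranked 5 in Ninj1KO_Pam3. The fit of only the groups compared was not run for the difference of the changes. No paired analysis was possible because the replicate numbers follow accession order and pair no libraries. Ccl17, Ccl22 and Ccl12 were limited by few resting reads.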
